A study of Mus musculus with 8 samples.

Results

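Genes of glycolysis and of the cellular response to low oxygen were followed in mouse embryonic stem cells with altered Gtf2i or Hprt. The set held 36 named genes, taken as 18 glucose transporters and glycolytic enzymes and 18 other hypoxia targets. A gene was measured where a probe set of the array carried its symbol and no other, and the brightest such probe set, by its mean across the 8 arrays, stood for it. By this rule 33 genes were measured, 16 glycolytic and 17 other targets, of 18194 genes in all. The remaining 3 genes, Gpi1, Eno1 and Bnip3l, were not analysed here, as no probe set in the annotation used carried their symbol alone. Gapdh was read from the array's own control probe sets, the only ones with its symbol alone.

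4 kinds of stem cell were compared on 8 Affymetrix arrays, with 2 arrays per group. The exon 2 mutant (genotype Δexon2/+) was made by gene targeting in R1 stem cells and, by its label, lacks exon 2 in an allele of Gtf2i, the gene of the transcription factor TFII-I. The trap line (HPRT -/-:GTF2I +/-) came from a gene trap in AB2.2 stem cells and carries a mutation of Hprt, a purine salvage enzyme gene, beside the altered Gtf2i. The Hprt knockout (HPRT -/-) has no Gtf2i mutation in its label, and the wild-type cells are labelled with neither mutation and are of an unnamed line. All lines were grown with leukaemia inhibitory factor and serum replacement on feeder cells, under a growth protocol that was the same for every sample and named no change of oxygen. Line, clone and any batch cannot be told apart from genotype. The titles call the arrays of each group biological replicates, without saying what was separate between them, so the p-values reflect no more than the array-to-array spread seen here.

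Glycolysis takes glucose in through transporters of the Slc2a family and turns it into pyruvate in a chain of cytosolic enzymes, and lactate dehydrogenase converts pyruvate to lactate. Under low oxygen the factor HIF-1, a pair of HIF-1α and ARNT, accumulates because the prolyl hydroxylases that mark HIF-1α for destruction by VHL need oxygen, and it raises many glycolytic genes together with genes for vessel growth, mitophagy and collagen modification. Pluripotent stem cells are known for a high rate of glycolysis even with oxygen present. Several of the targets, Ddit4 among them, also respond to other stresses.

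Within each group the 2 arrays had correlations of 0.997 to 0.998 across the 13820 tested genes. All 10 stem cell markers, Pou5f1 and Nanog among them, lay above the filter level on every array. Their mean log2 intensity was 12.11 to 12.16 in the exon 2 mutant, 12.26 to 12.28 in the trap line, 12.36 to 12.39 in the Hprt knockout and 11.87 in wild-type. Feeder fibroblast markers (29 measured of 30) differed far more. Their mean log2 intensity was 11.67 to 11.70 in the exon 2 mutant, 11.80 to 11.81 in the trap line, 8.16 to 8.18 in the Hprt knockout and 12.39 to 12.41 in wild-type. Their summed linear intensity ran from 170475 to 173976 in the exon 2 mutant, 177864 to 179534 in the trap line, 22857 to 22971 in the Hprt knockout and 265764 to 267036 in wild-type. Lum and Fap were below the filter level, the array's 40th percentile, in Hprt knockout cells. Primitive endoderm markers had a mean log2 intensity of 6.96 to 7.04 in the exon 2 mutant, 7.48 to 7.50 in the trap line, 7.63 to 7.68 in the Hprt knockout and 7.72 in wild-type. Trophoblast markers stood at 7.34 to 7.37 in the Hprt knockout and at 6.07 to 6.35 elsewhere. The log2 difference between the 5′ and 3′ control probe sets of Gapdh, a sign of RNA integrity, was 0.05 in the exon 2 mutant, 0.06 and 0.07 in the trap line, 0.03 in the Hprt knockout and 0.09 and 0.13 in wild-type. For Actb it was -0.42 and -0.38 in the exon 2 mutant, -0.46 and -0.45 in the trap line, -0.32 and -0.34 in the Hprt knockout and -0.26 and -0.25 in wild-type, so that the groups did not overlap. The part of RNA integrity in the results was not tested. Fewer cells of a type and less RNA per cell cannot be told apart in such bulk samples. Hprt was at a mean of 12.25 in the exon 2 mutant, 10.74 in the trap line, 10.04 in the Hprt knockout and 12.08 in wild-type. Gtf2i was at 10.48, 10.09, 10.90 and 10.12 in the same groups, and where its probes lie relative to exon 2 or the trap was not analysed here.

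The exon 2 mutant had higher signal of nearly all measured glycolytic genes than wild-type, and of most other measured hypoxia targets. All values that follow are log2 intensities or log2 differences ± standard error from a limma fit to the 8 arrays, with n = 2 arrays per group and Benjamini-Hochberg adjusted p below 0.05 as the threshold. Of 16 glycolytic genes 15 rose and 1 fell, while 55.5% of all 13820 tested genes passed, 32.5% higher and 23.1% lower. The median difference was 0.56 for the glycolytic genes and 0.03 for all tested genes. Cyclic loess scaling turned the share of all genes to 26.6% higher and 29.1% lower, and left 13 glycolytic genes higher and 1 lower. Of 29 feeder markers 27 were lower and none higher in the same arrays, with a median of -0.50. Of 10 stem cell markers 7 were higher and 1 lower, with a median of 0.27. The part of cell type shares in the rises was not tested.

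Among the transporters and the first enzymes the changes were of unequal size. Slc2a1, the widely expressed glucose transporter, was at 12.50 and 12.46 in the exon 2 mutant and at 11.75 and 11.85 in wild-type, a difference of 0.68 ± 0.07 (adjusted p = 0.000269). Slc2a3, a high-affinity glucose transporter, was at 13.62 and 13.71 in the exon 2 mutant and 13.29 on both wild-type arrays (0.38 ± 0.05). The arrays of both groups stayed apart for each transporter. Hk2, a hexokinase that phosphorylates glucose on entry, went against the rest, at 11.19 and 11.29 in the exon 2 mutant and 11.60 and 11.65 in wild-type (-0.38 ± 0.06, adjusted p = 0.00173). Its sister enzyme gene Hk1 rose by 0.21 ± 0.05 (adjusted p = 0.0104), a call lost under cyclic loess, with probe sets averaged and without the first wild-type array. The phosphofructokinase genes Pfkl (0.91 ± 0.07) and Pfkp (0.52 ± 0.06), which encode the committed step, were both higher.

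Further down the chain, the aldolase gene Aldoc rose steeply. It was at 8.50 and 8.86 in the exon 2 mutant and at 7.08 and 7.09 in wild-type, a 3.02-fold difference (1.60 ± 0.11, adjusted p = 5.59e-05). The main aldolase gene Aldoa was at 13.58 and 13.54 in the exon 2 mutant and at 12.93 and 12.95 in wild-type (0.62 ± 0.05). Tpi1, which interconverts the triose phosphates, was at 12.69 and 12.72 in the exon 2 mutant and 12.12 and 12.09 in wild-type, 1.51-fold higher (0.60 ± 0.05, adjusted p = 7.69e-05). Aldoa, Tpi1 and the phosphoglycerate kinase gene Pgk1 (0.59 ± 0.05) thus differed by similar amounts, and their arrays did not overlap. Smaller rises were seen in Pgam1, a phosphoglycerate mutase gene (0.25 ± 0.06), and in Gapdh (0.16 ± 0.05, adjusted p = 0.0244). The Gapdh call was lost without a filter, under cyclic loess, with the fit limited to the compared arrays, with the replicate number as a block and when 1 array was left out (the first exon 2 mutant array or either wild-type array). The neuronal enolase gene Eno2 rose by 1.18 ± 0.06 and the pyruvate kinase gene Pkm by 0.46 ± 0.07. Wild-type Eno2, at 5.56 and 5.54, lay close to the filter levels of 5.39 and 5.36.

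Both lactate dehydrogenase genes were higher. Ldha, whose subunit favours lactate formation, was at 13.07 and 13.12 in the exon 2 mutant and 12.65 and 12.67 in wild-type (0.43 ± 0.05, adjusted p = 0.00041). Ldhb, whose subunit favours the reverse reaction and which is not a classical HIF target, was at 12.19 and 12.24 in the exon 2 mutant and 10.65 and 10.50 in wild-type, 3.12-fold higher (1.64 ± 0.07, adjusted p = 1.01e-05). Its rise was the widest of the 16 glycolytic genes.

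**Figure D1:**
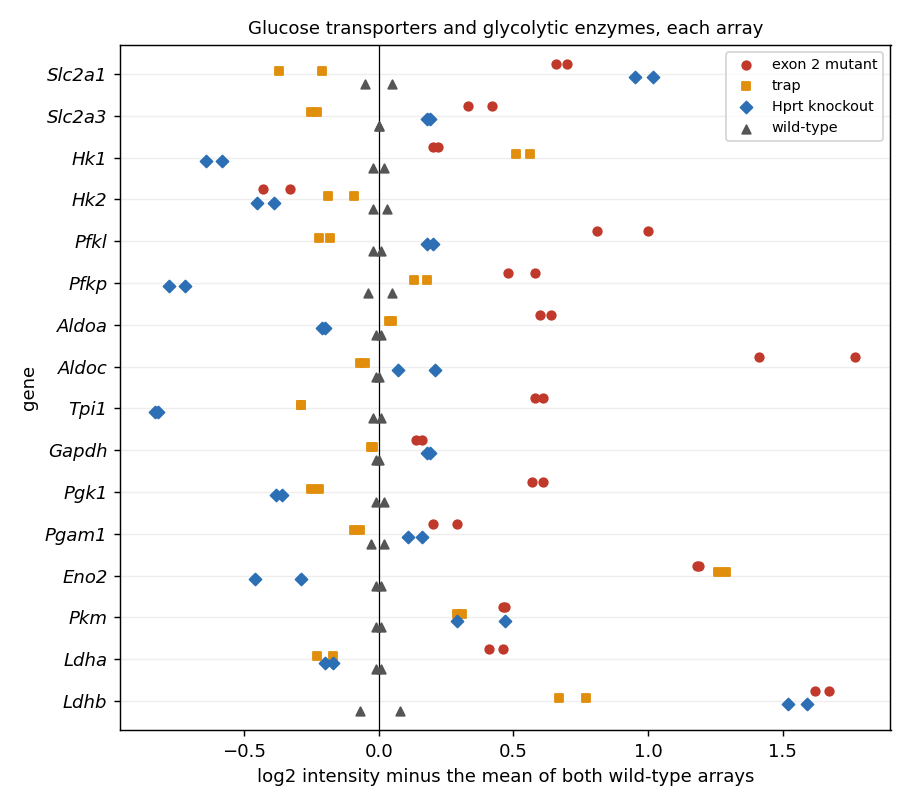
Log2 intensity of each glycolytic gene on each array, less the mean of the wild-type arrays (x axis), with genes down the page in pathway order and 2 points per group. The exon 2 mutant points lie right of wild-type for every gene except Hk2, and the Hprt knockout points lie left of wild-type for Tpi1, Pfkp and Hk1 and right of it for Slc2a1 and Ldhb.

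Other hypoxia targets rose in 12 of 17 cases and fell in 4 in the exon 2 mutant, with a median of 0.63. Car9, a carbonic anhydrase of the cell surface, was above the filter level only in the exon 2 mutant and so could be tested only because it was high there. Without Car9 the counts were 11 higher and 4 lower of 16. Car9 was at 6.39 and 5.99 in the exon 2 mutant and 4.96 and 4.97 in wild-type, where its level is set by the array background.

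Bnip3, a mitophagy receptor gene, differed more than any other member in this comparison. It was at 11.70 and 11.79 in the exon 2 mutant and 9.62 and 9.60 in wild-type, 4.39-fold higher (2.14 ± 0.06, adjusted p = 2.86e-06). Its trap and Hprt knockout arrays all lay below wild-type. Egln3, a prolyl hydroxylase gene that is itself induced by HIF, was at 8.93 and 8.75 in the exon 2 mutant and 7.07 on both wild-type arrays, 3.40-fold higher (1.77 ± 0.08, adjusted p = 1.11e-05). The related Egln1, the main oxygen sensor of the pathway, was also higher (0.41 ± 0.10, adjusted p = 0.00959), a call lost without the first exon 2 mutant array (adjusted p = 0.0531). Ddit4, an inhibitor of mTORC1 signalling, was at 11.77 and 11.82 in the exon 2 mutant and 10.28 and 10.19 in wild-type (1.56 ± 0.06, adjusted p = 7.42e-06).

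Pdk1, a kinase that shuts off pyruvate dehydrogenase, was at 11.49 and 11.25 in the exon 2 mutant and at 10.47 and 10.45 in wild-type (0.91 ± 0.10, adjusted p = 0.000399). Pdk3, of the same kinase family, rose by 0.27 ± 0.06, a call lost under cyclic loess (0.16, adjusted p = 0.0525). Pfkfb3, which makes the activator of phosphofructokinase, was at 8.24 and 7.96 in the exon 2 mutant and 7.21 and 7.23 in wild-type (0.89 ± 0.09), whereas its relative Pfkfb4 fell (-0.52 ± 0.07, adjusted p = 0.00102). Rises were also found in Ankrd37 (0.96 ± 0.11), Ndrg1 (0.93 ± 0.06, and 0.28 to 1.05 at its 4 other probe sets), the MYC antagonist gene Mxi1 (0.63 ± 0.08) and the histone demethylase gene Kdm3a (0.39 ± 0.05). The other Mxi1 probe set differed by 0.12 and did not pass.

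Adm, Vegfa and P4ha2 fell together with Pfkfb4, and P4ha1 did not pass. Adm, the gene of the vasodilator peptide adrenomedullin, was at 9.40 and 9.41 in the exon 2 mutant and 10.27 on both wild-type arrays (-0.87 ± 0.05, adjusted p = 2.38e-05). Vegfa, the vascular endothelial growth factor gene, was at 8.73 and 8.55 in the exon 2 mutant and 9.26 and 9.15 in wild-type (-0.56 ± 0.15, adjusted p = 0.0178), a call lost without the second exon 2 mutant array or the first wild-type array. P4ha2 fell (-0.43 ± 0.06), and P4ha1 was at 9.62 and 9.65 in the exon 2 mutant and 9.57 and 9.55 in wild-type (0.08 ± 0.05, adjusted p = 0.198). The falls of Adm, Vegfa and P4ha2 stood beside the lower feeder markers, and the part of those in the falls was not tested.

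**Figure D2:**
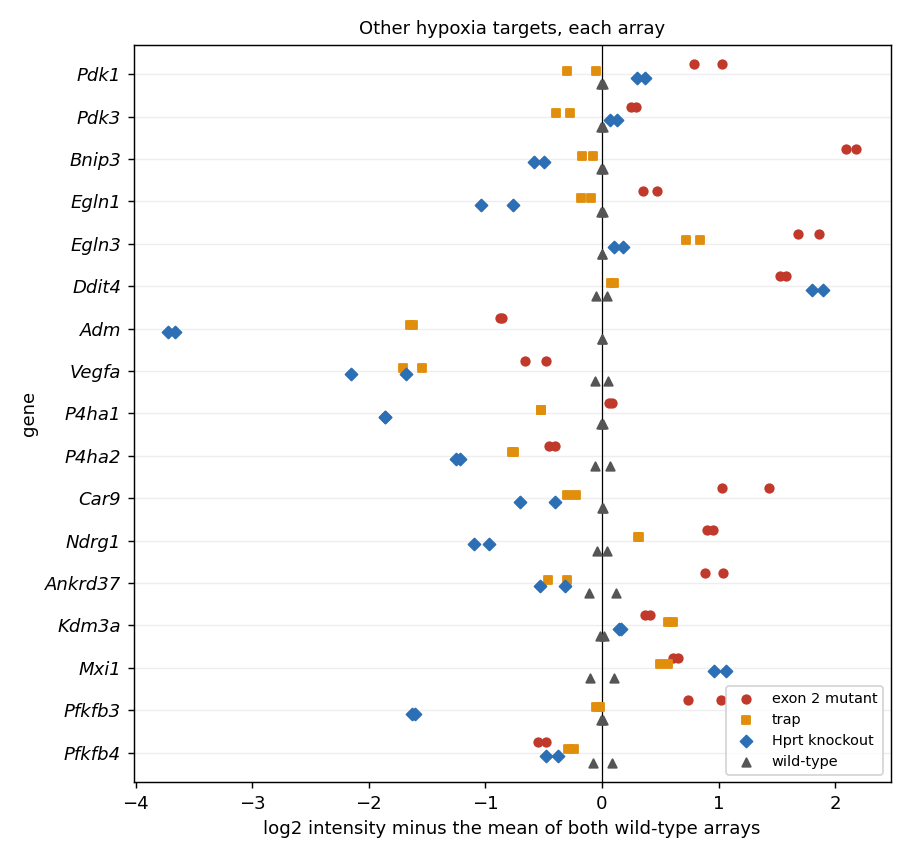
Log2 intensity of each other hypoxia target on each array, less the mean of the wild-type arrays (x axis), with genes down the page and 2 points per group. Bnip3, Egln3 and Ddit4 lie furthest right in the exon 2 mutant, while Adm, Vegfa, P4ha1, P4ha2 and Pfkfb3 lie furthest left in the Hprt knockout.

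In the Hprt knockout the same genes split. This comparison, like the one above, uses the wild-type arrays as its control, so the values are given side by side without a measure of likeness. Of 16 glycolytic genes 6 rose and 8 fell, and of 17 other targets 4 rose and 11 fell (10 of 16 without Car9), while 71.5% of all tested genes passed, 46.4% higher and 25.1% lower. Medians relative to that of all tested genes, which was 0.16 and moved by -0.16 under cyclic loess, were -0.18 for glycolytic genes and -0.70 for other targets. Cyclic loess gave 34.1% of all genes higher and 34.2% lower, with 3 glycolytic genes higher and 8 lower and with 2 other targets higher and 12 lower. Feeder markers were lower in 29 of 29 cases, with a median of -4.57, and their part in the falls and rises below was not tested.

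Adm had the largest difference of any member in any comparison. It was at 6.61 and 6.55 in the Hprt knockout and 10.27 on both wild-type arrays, 12.9-fold lower (-3.69 ± 0.05, adjusted p = 6.85e-09). Vegfa was at 7.53 and 7.06 in the Hprt knockout and 9.26 and 9.15 in wild-type (-1.91 ± 0.15), but its other probe set differed by -0.21 and did not pass. P4ha1, a catalytic subunit of the enzyme that hydroxylates collagen prolines, was at 7.70 on both Hprt knockout arrays and 9.57 and 9.55 in wild-type (-1.85 ± 0.05, adjusted p = 9.12e-08), and P4ha2 fell by 1.24. Pfkfb3 was at 5.62 and 5.59 in the Hprt knockout, close to the filter levels of 5.33 and 5.36, and 7.21 and 7.23 in wild-type (-1.61 ± 0.09). These 5 genes were each well separated from wild-type on both arrays. Ndrg1 (-1.03 ± 0.06, and -0.82 to 0.10 at its 4 other probe sets), Egln1 (-0.90 ± 0.10) and Bnip3 (-0.54 ± 0.06) were lower as well.

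Of the glycolytic genes, Tpi1 was at 11.28 and 11.29 in the Hprt knockout and 12.12 and 12.09 in wild-type (-0.82 ± 0.05, adjusted p = 4.84e-06). Falls were also found in Pfkp (-0.75 ± 0.06), Hk1 (-0.61 ± 0.05), Hk2 (-0.43 ± 0.06), Pgk1 (-0.38 ± 0.05), Aldoa (-0.20 ± 0.05) and Ldha (-0.18 ± 0.05). The Ldha call was lost without the first Hprt knockout array or the second wild-type array (adjusted p = 0.0691 and 0.0639). Eno2 (-0.37 ± 0.06) lay under the filter level on both Hprt knockout arrays, where background sets its signal. Ldhb went the other way, at 12.09 and 12.16 in the Hprt knockout and 10.65 and 10.50 in wild-type (1.55 ± 0.07, adjusted p = 1.59e-06). Slc2a1 was at 12.75 and 12.82 in the Hprt knockout and 11.75 and 11.85 in wild-type (0.98 ± 0.07). Among the other targets Ddit4 was at 12.14 and 12.04 in the Hprt knockout and 10.28 and 10.19 in wild-type (1.85 ± 0.06, adjusted p = 2.85e-07), and Mxi1 rose by 1.01 ± 0.08. The small rises of Pfkl (0.19) and Kdm3a (0.15) turned to -0.05 and -0.07 under cyclic loess, where neither passed.

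The plot of levels of 8 genes shows the contrasting patterns side by side. Ddit4 and Ldhb were high in both the exon 2 mutant and the Hprt knockout, while Bnip3 and Aldoc were high in the exon 2 mutant alone.

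**Figure D3:**
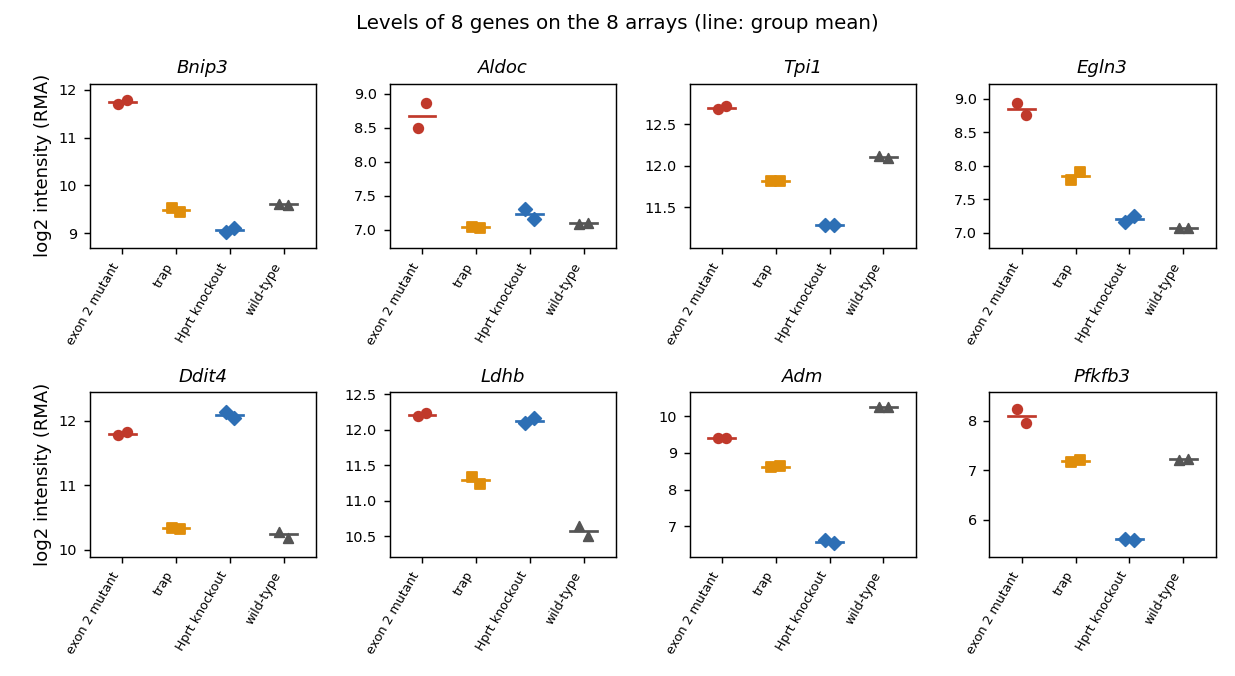
Log2 RMA intensity of 8 genes on the 8 arrays, with 1 panel per gene, a point per array and a line at the group mean. Axes differ between panels and do not start at 0. Bnip3, Aldoc, Tpi1, Egln3 and Pfkfb3 are highest in the exon 2 mutant, Ddit4 is highest in the Hprt knockout and Adm is highest in wild-type and lowest in the Hprt knockout.

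The trap line was set against the Hprt knockout, the group with which it shares the Hprt mutation by label. Glycolytic genes divided evenly, with 7 higher and 6 lower of 16, and other targets were more often higher, with 9 higher and 4 lower of 17 (the same counts of 16 without Car9). Of all tested genes 68.4% passed, 26.6% higher and 41.8% lower, which cyclic loess turned to 33.9% and 30.7%. On that scaling 7 glycolytic genes were higher and 5 lower, and 11 other targets were higher and 4 lower. Relative to the median of all tested genes, which was -0.13 and moved by 0.14 under cyclic loess, the medians were 0.08 for glycolytic genes and 0.54 for other targets. Of 29 feeder markers 27 were higher in the trap line, with a median of 3.90. Their part in the rises and falls was not tested.

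Adm was at 8.62 and 8.65 in the trap line and 6.61 and 6.55 in the Hprt knockout (2.05 ± 0.05, adjusted p = 8.6e-08). Pfkfb3 was at 7.17 and 7.20 in the trap line and 5.62 and 5.59 in the Hprt knockout (1.58 ± 0.09), and Ndrg1 (1.35 ± 0.06, and 0.12 to 1.16 at its 4 other probe sets) and P4ha1 (1.34 ± 0.05) were also more than 2-fold higher. Vegfa overlapped between the groups, at 7.50 and 7.67 in the trap line and 7.53 and 7.06 in the Hprt knockout (adjusted p = 0.126), and passed under cyclic loess (0.46) and without the first Hprt knockout array (0.53). Eno2 rose by 1.66 ± 0.06 from below the filter level, Hk1 by 1.14 ± 0.05, Pfkp by 0.90 ± 0.06 and Tpi1 by 0.54 ± 0.05. Ddit4, Slc2a1 and Ldhb were lower in the trap line. Ddit4 was at 10.34 and 10.32 in the trap line and 12.14 and 12.04 in the Hprt knockout (-1.76 ± 0.06, adjusted p = 4.5e-07). Slc2a1 was at 11.59 and 11.43 in the trap line and 12.75 and 12.82 in the Hprt knockout (-1.27 ± 0.07), and Ldhb fell by 0.83.

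Against wild-type, fewer of these genes passed in the trap line. Both groups' arrays also enter comparisons above. Of 16 glycolytic genes 4 rose and 5 fell, of 17 other targets 4 rose and 7 fell (the same counts of 16 without Car9), and 13 of the 33 did not pass. Of all tested genes 41% passed, 26.5% higher and 14.6% lower, or 22% and 18.6% under cyclic loess, with 4 glycolytic genes higher and 7 lower and with 4 other targets higher and 8 lower on that scaling. Feeder markers were lower in 16 of 29 cases and higher in 4, with a median of -0.33, and their part in the differences was not tested. Adm was at 8.62 and 8.65 in the trap line and 10.27 on both wild-type arrays (-1.64 ± 0.05), and Vegfa at 7.50 and 7.67 in the trap line and 9.26 and 9.15 in wild-type (-1.62 ± 0.15, adjusted p = 0.000316, with -0.31 at its other probe set). Eno2 was at 6.81 and 6.84 in the trap line and 5.56 and 5.54 in wild-type (1.28 ± 0.06), the latter close to the filter level. Egln3 rose by 0.78 ± 0.08, but its other probe set differed by 0.28 and did not pass. Ldhb rose by 0.72 ± 0.07. Bnip3, at 9.53 and 9.44 in the trap line and 9.62 and 9.60 in wild-type, did not pass (-0.12 ± 0.06, adjusted p = 0.148), though it did under cyclic loess (-0.20, adjusted p = 0.0475). The count of lower glycolytic genes was unstable. It fell without the second trap array or the second wild-type array, where fewer of all tested genes passed as well.

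Set directly against the Hprt knockout, with arrays that also enter the comparisons above, the exon 2 mutant had 10 glycolytic genes higher and 1 lower of 16, and 14 other targets higher and 2 lower of 17 (13 and 2 of 16 without Car9). Of all tested genes 61.2% passed, 24.9% higher and 36.3% lower. Under cyclic loess it was 32% and 26.6%, with 13 glycolytic genes higher and 1 lower and with 14 other targets higher and 2 lower. Relative to all tested genes, whose median was -0.09 and moved by 0.11 under cyclic loess, the medians were 0.76 for glycolytic genes and 1.44 for other targets, beside feeder markers that were higher in 29 of 29 cases by a median of 3.87. Their part in these differences was not tested. Adm differed by 2.82 ± 0.05, Bnip3 by 2.68 ± 0.06 and Pfkfb3 by 2.50 ± 0.09. Tpi1, at 12.69 and 12.72 in the exon 2 mutant and 11.28 and 11.29 in the Hprt knockout, differed by 1.42 ± 0.05 (adjusted p = 5.43e-07). Ddit4 (-0.29 ± 0.06), Mxi1 (-0.38 ± 0.08) and Slc2a1 (-0.30 ± 0.07) were lower in the exon 2 mutant. The Slc2a1 call was lost without the second Hprt knockout array, which left no lower glycolytic gene. Ldhb, high in both lines, did not pass (0.09 ± 0.07, adjusted p = 0.287), though it did under cyclic loess (0.20, adjusted p = 0.0481).

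Over all 4 groups, both exon 2 mutant arrays lay above the other 6 arrays for 20 of the 33 members, 10 in each set, against 9.46% of all tested genes. Without Car9, which could be tested only because it was high there, the count was 19 of 32. They were below the other 6 for Pfkfb4 alone, against 10.1% of tested genes. Both Hprt knockout arrays were the lowest for 14 members (13 without Car9), against 20.8% of tested genes, and the highest for Slc2a1, Gapdh, Ddit4 and Mxi1, against 35.6%. Wild-type was the highest for Hk2, Adm, Vegfa, P4ha2 and Pfkfb4 (12.8% of tested genes) and the lowest for 6 members (24.3%). The trap arrays were the highest for Hk1, Eno2 and Kdm3a (12.7%) and the lowest for 8 members (9.99%).

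**Figure D4:**
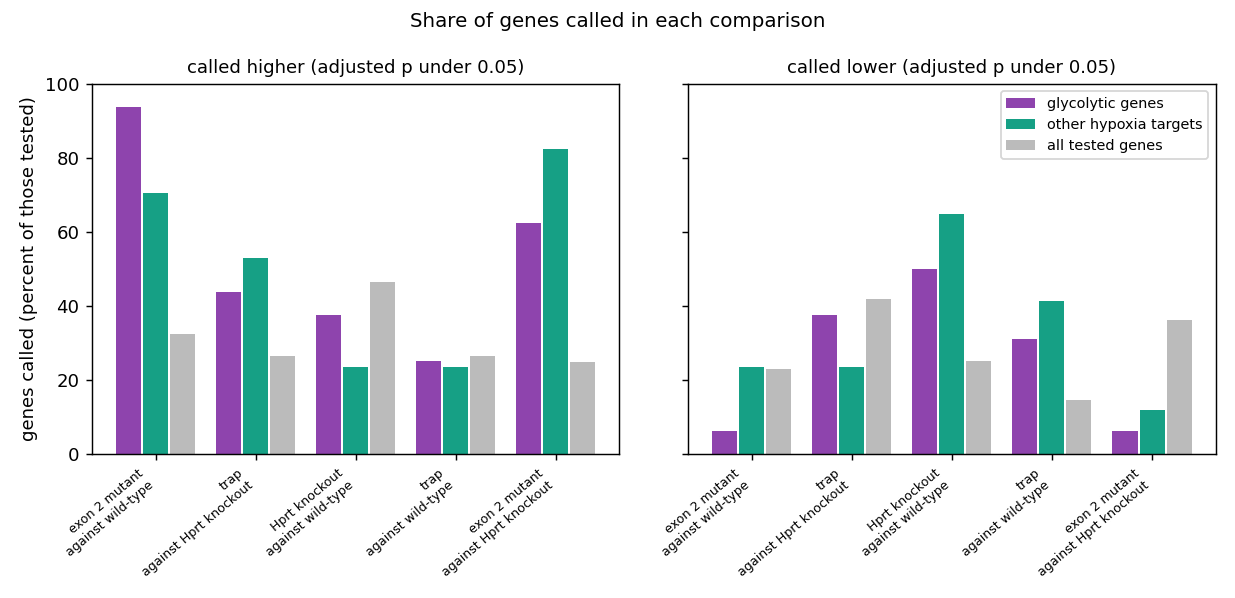
Percent of genes called higher (left) and lower (right) at adjusted p below 0.05 in 5 comparisons, for the 16 glycolytic genes, the 17 other hypoxia targets and all 13820 tested genes. Glycolytic genes are called higher in 93.8% of cases in the exon 2 mutant against wild-type, where the share of all genes is 32.5%, and in 25% of cases in the trap line against wild-type, where it is 26.5%.

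The difference between both Gtf2i-mutant effects, exon 2 mutant over wild-type less trap over Hprt knockout, was tested in the same fit. It passed for 15 of 16 glycolytic genes and 15 of 17 other targets (14 of 16 without Car9), against 69.7% of all tested genes (42.6% positive and 27% negative). These comparisons share no arrays. The same difference was negative for 29 of 29 feeder markers, with a median of -4.50. The parts of feeder signal, line and mutation in the differences below cannot be told apart. Of the 33 members, 12 rose in both comparisons, 10 rose in the exon 2 mutant and fell in the trap line, and 3 fell in the exon 2 mutant and rose in the trap line. Taken singly, 32.5% of all tested genes were higher and 23.1% lower in the exon 2 mutant. In the trap line 26.6% were higher and 41.8% lower. The share of all tested genes in each joint class was not computed, so these member counts have no background beside them. Ddit4 rose by 1.56 in the exon 2 mutant and fell by 1.76 in the trap line, a difference of 3.32 ± 0.08 (adjusted p = 1.41e-07). For Ldhb the effects were 1.64 in the exon 2 mutant and -0.83 in the trap line, and for Slc2a1 they were 0.68 and -1.27. Bnip3 rose in both, by 2.14 in the exon 2 mutant and by 0.42 in the trap line. Tpi1 rose in both by 0.60 and 0.54, and its difference of 0.06 did not pass (adjusted p = 0.431). All trap line changes here are relative to the Hprt knockout. Against wild-type the trap line had lower Tpi1 (-0.28 ± 0.05) and Slc2a1 (-0.29 ± 0.07) and higher Ldhb (0.72 ± 0.07). The other Slc2a1 probe sets differed by -0.23 and 0, the latter not called. The Slc2a1 call was lost without the second trap array or the second wild-type array. Ddit4 (0.1 ± 0.06) and Bnip3 (-0.12 ± 0.06) did not pass there.

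Several members have more than 1 probe set, and some of the brightest are of types that can bind related transcripts. For the exon 2 mutant against wild-type, 35 further probe sets of 18 members were above the filter level. For 34 of them the brightest probe set was called, and 29 were called in the same direction, none in the opposite one and 5 not at all. Among those 5 were a Pfkl probe set (0.14, against 0.91 at the brightest) and the other Vegfa probe set (-0.13, against -0.56). In the Hprt knockout against wild-type a Hk1 probe set and a Pfkp probe set with log2 differences of 0 and -0.02 did not follow the falls of the brightest. Opposite calls occurred for Pfkl in the Hprt knockout against wild-type and for Slc2a3 in the comparisons of the trap line with wild-type and of the exon 2 mutant with the Hprt knockout. Pseudogene copies of Gapdh, Aldoa, Pgk1 and other glycolytic genes could contribute signal, which was not analysed here.

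The counts that follow are to be set beside all tested genes, of which 32.5% were higher and 23.1% lower in the exon 2 mutant against wild-type (median 0.03) and 46.4% higher and 25.1% lower in the Hprt knockout against wild-type (median 0.16). Of 8 genes for HIF subunits and their regulators 3 rose and 4 fell in the exon 2 mutant against wild-type (1 and 4 under cyclic loess). Vhl, the adaptor that marks HIF-α for destruction, rose (0.50 ± 0.06), as did the HIF partner gene Arnt (0.24 ± 0.05). The related partner gene Arnt2 fell (-0.32 ± 0.08, adjusted p = 0.0143), as did Epas1, the HIF-2α gene (-1.03 ± 0.06, adjusted p = 2.98e-05). Hif1a averaged 12.6 in the exon 2 mutant and 12.8 in wild-type. Hif1a fell in the Hprt knockout (-0.95 ± 0.07 against wild-type) and rose in the trap line against the Hprt knockout (0.72 ± 0.07). A wider list of 26 tested hypoxia targets, outside the members, had 13 rises and 9 falls in the exon 2 mutant against wild-type and a median of 0.22. Stc2, a secreted glycoprotein gene, rose (2.43 ± 0.07), as did Ppfia4 (1.43 ± 0.17) and the lipoprotein receptor gene Vldlr (1.07 ± 0.11), while the VEGF receptor gene Flt1 fell (-1.53 ± 0.13). Stc2 was also high in the Hprt knockout against wild-type (2.17 ± 0.07). Angptl4, a lipase inhibitor gene and hypoxia target, fell in the Hprt knockout against wild-type (-2.65 ± 0.06).

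Further glycolysis genes, mostly isoforms of other tissues, showed 5 rises and 4 falls among 16 in the exon 2 mutant against wild-type, with a median of 0.03, the same as that of all tested genes. The muscle enolase gene Eno3 (0.82 ± 0.06) and the phosphoglucomutase gene Pgm1 (0.72 ± 0.06) rose, and Bpgm, a red cell enzyme gene, fell, with means of 7.86 in the exon 2 mutant and 8.86 in wild-type. The lactate exporter gene Slc16a3, counted among the 5 rises, averaged 5.64 in the exon 2 mutant and 4.56 in wild-type. It was above the filter level in the exon 2 mutant alone and could be tested only because it was high there, so its fold is not given. Genes of the tricarboxylic acid cycle and of pyruvate dehydrogenase, which oxidise pyruvate in mitochondria, numbered 20, of which 8 rose and 1 fell in the exon 2 mutant against wild-type (5 and 2 under cyclic loess, median 0.13), none by 2-fold. In the Hprt knockout against wild-type 18 of these 20 rose and 1 fell (11 and 1 under cyclic loess, median 0.42), led by Ogdh (0.96 ± 0.06). Of 6 pentose phosphate genes 2 rose and 1 fell in the exon 2 mutant against wild-type, shares near those of all genes, with Tkt at 0.36 ± 0.05 and Rpia at -0.62 ± 0.06. All 4 tested gluconeogenesis genes rose in the Hprt knockout against wild-type (3 under cyclic loess), among them Fbp2 (1.70 ± 0.07) and the pyruvate carboxylase gene Pcx (1.06 ± 0.07). Fbp1 averaged 7.50 in the Hprt knockout and 5.16 in wild-type, where it was below the filter level, so its fold is not given. In the Hprt knockout against wild-type, 7 of 10 stem cell markers rose and 2 fell (median 0.39), and 29 of 29 feeder markers fell. The part of cell type shares in the rises of these pathways was not tested.

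Promoters of the members were searched for the letters that HIF binds, ACGTG or GCGTG, on either strand. RefSeq windows of 300 bases (250 before the start and 50 from it, GRCm38.p6) were found for 31 of the 33 measured genes, and not for Slc2a3 and Ndrg1. A match was present in 29 of these 31 genes, or in 34 of their 44 windows, against 43.8% of all 32851 windows and 65.1% of the 11048 tested genes that have a window. The genes without a match were Eno2 and Tpi1, both higher in the exon 2 mutant than in wild-type. These matches are letters in a window and show no binding. Below are the windows of the members with a match and the widest change in any comparison, since Bnip3 stood out in the exon 2 mutant while Pfkfb3, Adm and P4ha1 were lowest in the Hprt knockout. Each is written 5′ to 3′ on the gene's strand with matches in capitals, and a palindrome CACGTG counts on both strands.
Bnip3 at chr7:138909457-138909756, minus strand: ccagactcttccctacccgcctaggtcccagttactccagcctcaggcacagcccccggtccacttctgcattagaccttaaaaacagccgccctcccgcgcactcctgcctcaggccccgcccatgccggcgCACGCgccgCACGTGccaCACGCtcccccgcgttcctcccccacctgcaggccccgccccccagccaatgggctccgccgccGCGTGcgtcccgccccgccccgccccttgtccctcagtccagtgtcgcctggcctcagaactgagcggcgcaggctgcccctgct
Pfkfb3 at chr2:11502041-11502340, minus strand: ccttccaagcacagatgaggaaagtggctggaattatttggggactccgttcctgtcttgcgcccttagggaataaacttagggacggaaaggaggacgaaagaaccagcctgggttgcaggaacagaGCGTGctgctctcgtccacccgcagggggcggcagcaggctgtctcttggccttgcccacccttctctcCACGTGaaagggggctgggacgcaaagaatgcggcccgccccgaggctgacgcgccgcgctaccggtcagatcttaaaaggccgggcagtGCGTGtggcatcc
Adm at chr7:110627407-110627706, plus strand: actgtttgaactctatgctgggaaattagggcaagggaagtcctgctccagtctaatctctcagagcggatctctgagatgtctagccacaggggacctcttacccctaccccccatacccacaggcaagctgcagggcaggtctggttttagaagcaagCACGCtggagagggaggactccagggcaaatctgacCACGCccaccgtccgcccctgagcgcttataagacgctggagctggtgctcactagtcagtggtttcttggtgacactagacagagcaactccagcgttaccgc
P4ha1 at chr10:59323046-59323345, plus strand: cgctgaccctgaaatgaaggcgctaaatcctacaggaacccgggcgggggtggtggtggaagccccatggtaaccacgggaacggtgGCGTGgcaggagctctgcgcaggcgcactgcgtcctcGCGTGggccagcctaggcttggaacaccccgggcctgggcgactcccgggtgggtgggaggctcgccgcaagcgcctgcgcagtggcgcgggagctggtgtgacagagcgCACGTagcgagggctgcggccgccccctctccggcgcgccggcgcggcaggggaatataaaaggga
Bnip3 held 5 matches, Pfkfb3 4, P4ha1 3 and Adm 2, and a palindrome was present in Bnip3 and Pfkfb3. The Ddit4 window held 2 matches, and the Ldha window the most of all members, 7.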

How the data were processed

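Total RNA from 8 stem cell samples was labelled with biotin and hybridised to Affymetrix mouse arrays, per the labels' protocols. The authors deposited log2 intensities of 45101 probe sets. The submitters' processing notes name RMA, with no version. RMA aligns the arrays' overall distributions, so a shift of most genes or of total RNA is not visible. Column medians of 5.96 to 6.02 and maxima near 15 fit a log2 scale.

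Gene symbols came from the platform annotation, and all 33 measured members matched RefSeq by Entrez ID. Each gene was represented by its brightest single-symbol probe set. Control probe sets were left out unless a gene had no other. A gene was tested where 2 or more arrays had it above their 40th percentile, on average log2 5.35, and all 33 members did. Means of the 4 groups were estimated together from the 8 arrays with limma 3.58.1 in R 4.3.3 (4 residual degrees of freedom), tested on simulated data. P-values are two-sided, adjusted by Benjamini-Hochberg over all tested genes. With 2 arrays a side the smallest p of an exact permutation test is 0.333, so none was run. Precision is limited by 2 arrays per group. All measured members are described. From further lists, up to 4 genes past the threshold with the largest change were eligible to be named. Members and lists were chosen with earlier results of these data known.

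Alternatives were filter levels, cyclic loess, averaged probe sets, all probe sets in the fit, an intensity trend with a robust prior, a minimum difference, only the compared arrays, replicate number as a block, and each array left out.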

Additional observations from a re-analysis of the deposited data

Results flagged for a closer look

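The Gtf2i-mutant effects of both lines, exon 2 mutant over wild-type and trap over Hprt knockout, differed by limma's test of the difference for 15 of 16 glycolytic genes and for 15 of 17 other hypoxia targets (14 of 16 without Car9, which was above the filter level in the exon 2 mutant alone), against 69.7% of all tested genes. Among glycolytic genes the difference was positive for 11 and negative for 4, and among other targets it was positive for 8 and negative for 7 (7 and 7 without Car9). The lines differ in background and in feeder signal as well as in the mutation, and the parts of these cannot be told apart.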

How the results depend on the processing

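Each of the 165 member differences was recomputed under 8 settings and with each of the 8 arrays left out. With an array left out, 59 of 1320 values lost their call and 10 gained one. Under the other settings 27 of 1315 lost it and 21 gained one, those that turned sign included. Signs turned under cyclic loess in the Hprt knockout against wild-type for Pfkl (-0.05), Pdk3 (-0.15, adjusted p = 0.0475) and Kdm3a (-0.07), and with averaged probe sets for Slc2a3 in the exon 2 mutant against the Hprt knockout (-0.18). Loess centres the arrays on each other by construction. The cause of the Slc2a3 change was not tested.

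A minimum difference of 0.5 lowers counts by construction. The shares of all tested genes past it were not computed, so the counts at this minimum have no background beside them. For the exon 2 mutant against wild-type it left 9 glycolytic genes higher and 0 lower. For the trap line against the Hprt knockout it left 4 glycolytic genes higher and 2 lower, and 2 other targets lower. In the Hprt knockout against wild-type it left 2 glycolytic genes higher and 3 lower, and 2 other targets higher. For the trap line against wild-type it left 0 glycolytic genes and 4 other targets lower. In the exon 2 mutant against the Hprt knockout it left 0 lower in either set. For the difference of both Gtf2i-mutant effects it left 6 glycolytic genes positive and 2 negative. Under cyclic loess the Hprt knockout against wild-type had 3 glycolytic genes and 2 other targets higher, where 6 and 4 had been called.

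With arrays left out in turn, the higher other targets in the Hprt knockout against wild-type numbered 2 to 4, being 2 without the second Hprt knockout array or either wild-type array. The lower glycolytic genes of the trap line against wild-type numbered 2 to 6, and those of the exon 2 mutant against the Hprt knockout 0 to 1. For the exon 2 mutant against wild-type, most glycolytic genes and most other targets stayed higher. The number of calls over all tested genes also changed with an array left out. The member counts were not set against that change.

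Replicate numbers gave no common pairing of the arrays. Correlations of same-numbered deviations were 0.175 between the exon 2 mutant and the Hprt knockout and 0.14 between the trap line and wild-type. Between the other groups they ran from -0.275 to -0.125. Whether the groups share deviations under another numbering was not tested, and a block by replicate number would not remove these. With the number as a block (replicate block) 3 calls were lost and none gained, those of Gapdh in the exon 2 mutant against wild-type (adjusted p = 0.0502), Pgk1 in the trap line against the Hprt knockout (adjusted p = 0.0695) and Pdk3 in the exon 2 mutant against the Hprt knockout (adjusted p = 0.0503).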
